A study of Rattus norvegicus with 10 samples.

Results

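Transcripts that mark the steps of adult neurogenesis and cell division were followed in the hippocampus of rats 3 months after traumatic brain injury (TBI). The set held 10 genes, Sox2, Nes, Mki67, Top2a, Eomes, Neurod1, Sox4, Sox11, Dcx and Stmn1, chosen by name as rows of the count table whose RefSeq record carries that symbol. Of these, 8 had a row, 1 each, among 32041 RNA records that cover 16610 named genes. The levels of Eomes and Top2a were not analysed here. Adult male Sprague-Dawley rats received lateral fluid percussion, a pressure pulse of 3.32 atm on the intact dura through an opening in the left skull (5 rats), or anaesthesia and the same surgery without the pulse (sham, 5 rats). No rat was without surgery, so the effect of the craniectomy itself is shared by both groups. Tissue with CA3 and the dentate gyrus was taken from the left hippocampus. Each library is 1 rat.

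In the adult dentate gyrus, neural stem cells with the properties of radial glia lie along the inner edge of the granule cell layer and divide to give intermediate progenitors. These become neuroblasts and immature granule neurons, which switch on microtubule and migration genes before they join the layer. Stem cells share many transcripts with astrocytes, which are far more numerous, and in bulk tissue fewer cells of a type and less RNA per cell cannot be told apart.

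Poly-A RNA gave between 23425817 and 31671838 counts per library. Ribosomal RNA took 59.0% of the counts in sham replicate 4 and 58.5% in sham replicate 5, against 12.5% to 26.2% in the other 8 libraries. The share was higher in sham than in TBI (two-sided exact permutation test, p = 0.0238), so that fewer counts lay behind the other genes in the sham group. Levels are given as CPM, counts scaled to a common library size by TMM, the trimmed mean of M values, which sets libraries against each other by the bulk of their genes. Transcript length was not used, so levels were compared between rats and not between genes. Of 22431 RNA records tested with edgeR's quasi-likelihood test, 0 (0%) passed a Benjamini-Hochberg adjusted p of 0.05, with 0.477 as the smallest. Without adjustment 1769 (7.89%) had a p under 0.05, of which 1097 (4.89%) were higher in TBI and 672 (3%) lower.

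None of the 8 members passed the adjusted threshold. Sox2, a transcription factor that maintains neural stem cells, was 1.26-fold higher in TBI, and it was the only member under an unadjusted p of 0.05. That is 1 of 8, or 12.5%, beside 7.89% of all records. The markers of dividing cells and of newborn neurons lay close to no difference or slightly lower, with Dcx 0.890-fold and Mki67 0.873-fold of sham. The median log2 change was 0.01 over the 8 members and -0.01 over all records. In 0 of 8 members did the ranges of the groups separate, beside 0.923% of all records.

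**Figure D1:**
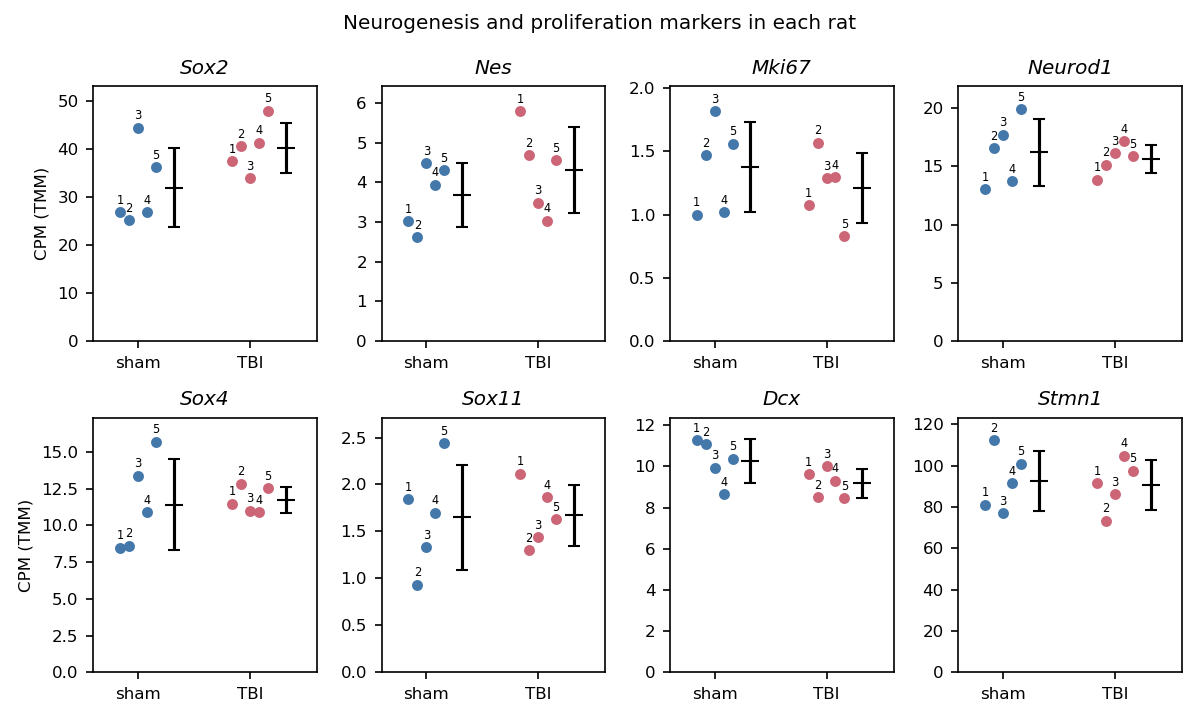
Level of each member in CPM (vertical axis, from 0) in the 5 sham and 5 TBI rats. Each point is a rat with its replicate number, and the black bar is the mean with 1 SD. The groups overlap in every panel, and in the Sox2 panel the 5 TBI rats lie above the sham median of 26.9 CPM.

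Sox2 was measured in the sham rats at 26.9, 25.2, 44.4, 26.9 and 36.1 CPM (replicates 1 to 5) and in the TBI rats at 37.4, 40.6, 33.9, 41.3 and 47.9 CPM. All 5 TBI rats were above the sham median, but the groups overlapped, since sham replicate 3 was higher than every TBI rat except replicate 5. The means were 31.9 ± 8.21 CPM in sham and 40.2 ± 5.21 CPM in TBI (SD, n = 5). The log2 change was 0.33 (SE 0.15, 95% interval 0.01 to 0.65; edgeR quasi-likelihood test, unadjusted p = 0.0415, Benjamini-Hochberg adjusted p = 0.620). The direction was the same under all 21 alternatives, while the unadjusted p was under 0.05 in 12 of them and ranged from 0.000216 to 0.164. The lowest came from leaving out both sham replicate 3 and TBI replicate 3 (log2 change 0.54), the only alternative in which Sox2 passed the adjusted threshold (edgeR, adjusted p = 0.0250). That fit was chosen after seeing the data, and the rats had been set apart by their expression, sham replicate 3 as the highest of its group and TBI replicate 3 as the lowest, so that it favours a difference. Without sham replicate 3 alone the log2 change was 0.49, and Sox2 lost the unadjusted threshold when sham replicate 1, 2 or 4 or TBI replicate 1, 2, 4 or 5 was left out (log2 change 0.26 to 0.36). With the share of ribosomal RNA as a covariate p was 0.164, and without sham replicates 4 and 5, the richest in it, p was 0.0811.

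Nes encodes nestin, an intermediate filament of neural stem and progenitor cells that also occurs in reactive astrocytes and vessel walls. Its level was 3.03, 2.62, 4.48, 3.94 and 4.31 CPM in the sham rats and 5.80, 4.68, 3.49, 3.04 and 4.56 CPM in the TBI rats. Replicates 1, 2 and 5 of the TBI group were above every sham rat, whereas replicates 3 and 4 lay inside the sham range. The log2 change of 0.25 (SE 0.18, 95% interval -0.14 to 0.63) was not resolved from 0 (edgeR, unadjusted p = 0.190, adjusted p = 0.780). Its counts ran from 58 to 200 per library.

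Mki67 encodes Ki-67, a nuclear protein present in cycling cells and lost in resting ones. It was measured at 0.999, 1.47, 1.82, 1.02 and 1.56 CPM in the sham rats and at 1.07, 1.57, 1.29, 1.30 and 0.829 CPM in the TBI rats. Only TBI replicate 5 fell outside the sham range, below it. With 15 to 59 reads per library, counting error alone was 25.8% in the lowest library. The log2 change was -0.20 (SE 0.22; edgeR, unadjusted p = 0.381, adjusted p = 0.872), and its 95% interval of -0.65 to 0.26 spans a fold of 0.637 to 1.20. The biological coefficient of variation between rats was 18.9%.

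Neurod1 is a basic helix-loop-helix factor that drives the differentiation of progenitors into granule neurons and remains expressed in neurons. Its level was 13.0, 16.5, 17.7, 13.7 and 19.9 CPM in the sham rats and 13.9, 15.1, 16.1, 17.2 and 15.8 CPM in the TBI rats. All TBI values lay inside the sham range. The log2 change was -0.05 (SE 0.11, 95% interval -0.28 to 0.18; edgeR, unadjusted p = 0.660, adjusted p = 0.944).

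Sox4 and Sox11 are related SoxC transcription factors that turn on neuronal genes in committed precursors. For Sox4 the sham rats were at 8.49, 8.62, 13.4, 10.9 and 15.7 CPM and the TBI rats at 11.5, 12.8, 11.0, 10.9 and 12.5 CPM. The TBI rats were close together, in the middle of a wide sham range. The log2 change was 0.05 (SE 0.14, 95% interval -0.25 to 0.36; edgeR, unadjusted p = 0.710, adjusted p = 0.957). Sox11 was at 1.84, 0.934, 1.33, 1.70 and 2.44 CPM in the sham rats and at 2.12, 1.30, 1.44, 1.87 and 1.63 CPM in the TBI rats, again with every TBI value inside the sham range. Its log2 change was also 0.05, with a wider interval of -0.41 to 0.52 (SE 0.22; edgeR, unadjusted p = 0.807, adjusted p = 0.974). It had 25 to 73 reads per library, and its biological coefficient of variation between rats was 20.1%, against 15.7% for Sox4. Both estimates changed sign when single rats were left out.

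Dcx encodes doublecortin, the microtubule-associated protein of migrating neuroblasts and young neurons. It was at 11.3, 11.1, 9.94, 8.63 and 10.4 CPM in the sham rats and at 9.63, 8.49, 10.0, 9.30 and 8.44 CPM in the TBI rats. All 5 TBI rats were below the sham median of 10.4 CPM, and 2 were below the lowest sham rat. The means were 10.3 ± 1.05 and 9.17 ± 0.692 CPM (SD, n = 5). The log2 change of -0.17 (SE 0.10, 95% interval -0.37 to 0.04) did not pass the test (edgeR, unadjusted p = 0.10, adjusted p = 0.713), and 14.03% of all records had a smaller p. Without sham replicate 4, the lowest sham rat, the log2 change was -0.22 and the unadjusted p was 0.0342.

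Stmn1 encodes stathmin, a protein that destabilises microtubules and is abundant both in dividing cells and in young and mature neurons. Its level was 81.1, 112, 77.1, 91.6 and 101 CPM in the sham rats and 91.4, 73.3, 86.0, 105 and 97.5 CPM in the TBI rats. The groups overlapped almost fully. The log2 change was -0.03 (SE 0.11, 95% interval -0.26 to 0.20; edgeR, unadjusted p = 0.785, adjusted p = 0.970).

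**Figure D2:**
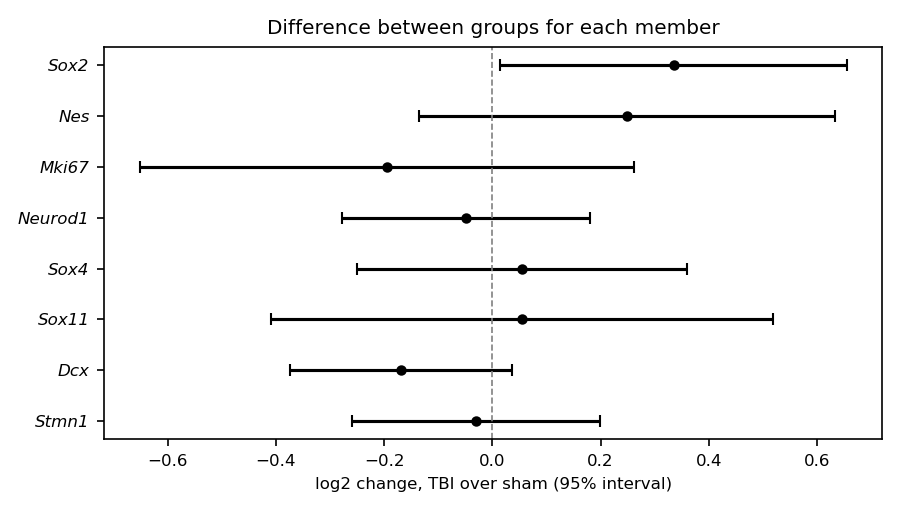
Log2 change of each member, TBI over sham (horizontal axis), with its 95% interval from the edgeR fit. The interval of Sox2 starts at 0.01 and the other 7 include 0, with the widest for Mki67 and Sox11.

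Whether markers that share a cell type moved together from rat to rat was asked for 6 pairs over the 10 rats. Nes and Sox2 had the highest correlation (Pearson r = 0.593, permutation p = 0.0716, adjusted over the 6 pairs p = 0.429; Spearman rho = 0.612, permutation p = 0.0664, adjusted p = 0.398). Pearson r was 0.509 without the 2 rats farthest from the median of Nes and 0.672 without sham replicates 4 and 5. Within the groups it was 0.809 in the 5 sham rats and 0.113 in the 5 TBI rats. Sox4 and Sox11 had r = 0.401 and rho = 0.103. Dcx had r between -0.0753 and 0.270 with Sox11, Neurod1, Stmn1 and Mki67. No pair passed the adjusted threshold, and the pooled values include any difference between the groups.

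Letters upstream of the start are shown for the members on which the results turn, Sox2 as the member under the unadjusted threshold, Dcx as the neuroblast marker and Mki67 as the marker of dividing cells. Each is the 250 bases before the start site in RefSeq, assembly GRCr8, written 5′ to 3′ on the strand of the gene. Capitals mark the CCAAT box (CCAAT), the GC box (GGGCGG), a SOX motif (ACAAAG), the cell cycle gene homology region or CHR (TTTGAA) and the TATA box (TATAAA), each searched on both strands. Where motifs run into each other the capitals are continuous. Sox2 lies on the plus strand (chr2:119464881-119465130), Dcx on the minus strand (chrX:112304162-112304411) and Mki67 on the minus strand (chr1:199952594-199952843).
Sox2: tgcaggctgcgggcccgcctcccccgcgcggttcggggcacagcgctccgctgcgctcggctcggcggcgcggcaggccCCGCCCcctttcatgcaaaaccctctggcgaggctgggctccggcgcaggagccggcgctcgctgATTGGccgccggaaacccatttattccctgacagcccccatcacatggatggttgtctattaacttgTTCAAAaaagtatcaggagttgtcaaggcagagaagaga
Dcx: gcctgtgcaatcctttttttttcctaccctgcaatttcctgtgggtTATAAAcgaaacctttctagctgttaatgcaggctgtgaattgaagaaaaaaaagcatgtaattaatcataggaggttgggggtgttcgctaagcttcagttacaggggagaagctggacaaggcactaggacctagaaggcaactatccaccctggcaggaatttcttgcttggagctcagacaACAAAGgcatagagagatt
Mki67: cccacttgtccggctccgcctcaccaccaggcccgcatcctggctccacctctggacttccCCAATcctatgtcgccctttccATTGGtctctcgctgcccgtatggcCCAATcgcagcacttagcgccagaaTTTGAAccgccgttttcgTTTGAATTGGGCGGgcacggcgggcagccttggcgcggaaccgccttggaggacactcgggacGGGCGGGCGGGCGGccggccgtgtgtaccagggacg

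The upstream sequence of Mki67 held 4 CCAAT boxes, 4 GC boxes and 2 CHR motifs, whereas that of Sox2 held 1 of each, and that of Dcx held 1 TATA box and 1 SOX motif. GC content was 66% for Mki67, 64.4% for Sox2 and 44% for Dcx, beside a median of 52% over 27457 rat promoters. Of 9 members with an entry (all but Sox4, with Eomes and Top2a counted), 6 held a CCAAT box, 7 a GC box, 4 a CHR, 2 a SOX motif and 1 a TATA box. The shares over all promoters were 34.3%, 32.4%, 16.03%, 15.96% and 13.1%. These are matches of letters, and binding was not measured.

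To place the members, 4 lists of related genes were read in the same fit, holding 88 tested genes of 101. None passed the adjusted threshold, and 13 (14.8%) had an unadjusted p under 0.05, 11 higher and 2 lower in TBI, beside 7.89% of all records (4.89% higher, 3% lower). Genes of stem cells and radial glia made up most of these, with 6 higher and 1 lower of 15 tested and a median log2 change of 0.25. Lists of immature neurons (2 higher, 0 lower of 19; median 0.01), of the cell cycle (1 higher, 1 lower of 34; median 0.02) and of niche signals (2 higher, 0 lower of 20; median 0.09) held the rest. The shares called in these 3 lists, 10.5%, 5.88% and 10%, were near that of all records. The lists were not tested against each other. They were chosen with earlier results of these data known, so a share above that of all records is not independent evidence.

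**Figure D3:**
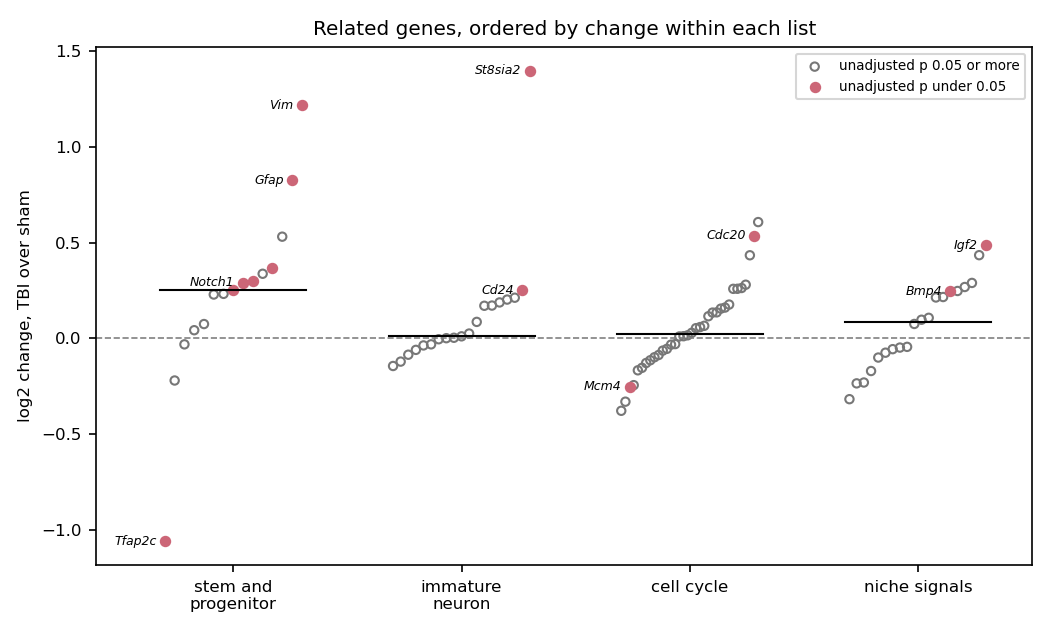
Log2 change, TBI over sham (vertical axis), of every tested gene in 4 related lists, ordered by change within each list. Filled points have an unadjusted p under 0.05 and the black lines are list medians, of which the stem and progenitor list has the highest, 0.25.

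In the stem cell list, Notch1, the receptor that holds stem cells undivided, was at 35.3 to 47.4 CPM in sham and 42.5 to 60.1 CPM in TBI (log2 change 0.29, SE 0.10; edgeR, unadjusted p = 0.0121). Gfap, the intermediate filament of astrocytes and radial glia, was at 776 to 1628 CPM in sham and 980 to 2308 CPM in TBI (log2 change 0.82, SE 0.27; unadjusted p = 0.0123). Vim, vimentin, another filament of both cells, was at 28.9 to 62.1 CPM in sham and 37.6 to 153 CPM in TBI (log2 change 1.21, SE 0.38; unadjusted p = 0.0127). Gfap and Vim were also among the genes that the study listed as altered in this model. Its methods give as many TBI rats as were analysed here and fewer sham rats, and do not say which sham rats. The list therefore rests on rats of these groups, and the direction of both genes is not independent evidence. Pax6, Id4 and Msi1, named after their values were seen, were the other 3 higher genes, with log2 changes of 0.37, 0.25 and 0.30. Tfap2c, a transcription factor linked to intermediate progenitors, was lower (0.312 to 0.816 CPM in sham, 0.129 to 0.406 CPM in TBI; log2 change -1.06, SE 0.37; unadjusted p = 0.00968) on 109 reads in all. Hes1 and Hes5, targets of Notch signalling, had log2 changes of -0.03 and -0.22 that did not pass. Adjusted p was at least 0.507 for each gene of this list. The list's 7 genes became 1 with the ribosomal share as a covariate, 2 without sham replicates 4 and 5, 3 without TBI replicate 2 and 11 without TBI replicate 3.

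Markers of other glial cells were read beside Sox2 and this list, against 4.89% of all records that were higher at the unadjusted threshold. Here and below, marker sums add CPM over genes, so the most abundant genes of a list weigh most. The summed level of 8 astrocyte markers was 945 to 1047 CPM in sham and 990 to 1235 CPM in TBI, with 2 of 8 (Ntsr2, Aldh1l1) higher at an unadjusted p under 0.05. Of 4 ependymal markers 2 were higher (sums 9.65 to 18.7 and 16.8 to 29.2 CPM), and of 7 microglial markers 3 (182 to 273 and 214 to 295 CPM). Of 7 markers of oligodendrocyte precursors 2 were higher (255 to 277 and 264 to 320 CPM), and of 6 markers of mature oligodendrocytes 0 passed (2378 to 3425 and 2400 to 3213 CPM). No marker in these lists was at 0, and their part in the Sox2 difference was not tested. Sham replicate 3, the sham rat with the most Sox2, also had the most Gfap and Vim of the sham group. Among the TBI rats, replicate 3 had the least of all 3 genes. The TBI rat with the most Gfap and Vim was replicate 1 (2308 and 153 CPM, Sox2 37.4 CPM), whereas replicate 5 had the most Sox2 (47.9 CPM).

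Markers of the dissected regions were present. Those of dentate granule neurons summed to 108 to 273 CPM in sham and 138 to 258 CPM in TBI, with 0 of 6 under the unadjusted threshold. All 6 were lower in direction in TBI, with a median log2 change of -0.25. For CA3 pyramidal cells the sums were 422 to 574 and 383 to 571 CPM, with 0 of 5 under the threshold. Markers of the subventricular zone and olfactory neuroblasts summed to 5.71 to 10.6 CPM in sham and 5.69 to 9.17 CPM in TBI, with 0 of 5. Markers of CA1, outside the named regions, were at 67.8 to 146 CPM in sham and 47.7 to 500 CPM in TBI. Of these, 1 of 4 was higher under the threshold, beside 4.89% of all records. All 4 were higher in direction in TBI, with a median log2 change of 1.17. Wfs1 and Mpped1 of this list were also among the genes that the study listed as higher, from rats of these groups, which is not independent evidence. TBI replicates 1, 2 and 5, with the highest CA1 sums (294, 500 and 191 CPM), also had the highest sums of the stem cell list (2713, 2527 and 2143 CPM). Gfap alone gave 2308, 2191 and 1820 CPM of these sums, so they mostly follow that gene and not the whole list. TBI replicate 4 had the lowest CA1 sum (47.7 CPM) but a higher stem cell list sum than TBI replicate 3 (2003 against 1213 CPM). Among the sham rats, replicate 3 had the highest sum of both lists (146 and 1913 CPM), with Gfap giving 1628 CPM of the latter. The part of CA1 tissue in the levels of that list was not tested.

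Among genes of the immature neuron list, St8sia2, a sialyltransferase that builds the polysialic acid carried by young neurons, was read 1 to 13 times per sham library and 10 to 32 times per TBI library. This is 0.0625 to 0.422 CPM against 0.293 to 0.928 CPM, ranges that overlap through sham replicate 3 (log2 change 1.40, SE 0.47; edgeR, unadjusted p = 0.00838, adjusted p = 0.487). Cd24, a surface glycoprotein of neuroblasts and also of ependymal cells, was at 36.0 to 43.9 CPM in sham and 37.3 to 59.2 CPM in TBI (log2 change 0.25, SE 0.11; unadjusted p = 0.0352, adjusted p = 0.610). It lost the unadjusted threshold in 9 of 21 alternatives, among them limma voom, the ribosomal covariate and leaving out sham replicate 1, 4 or 5 or TBI replicate 1, 2 or 5 (p up to 0.141). The tubulin Tubb3 (log2 change -0.04), Calb2 (-0.14), a calcium-binding protein of young granule cells and interneurons, and Gap43 (0.00), a growth cone protein, did not pass, like Dcx itself.

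In the cell cycle list the ranges of the groups separated for 2 of 34 genes, beside 0.923% of all records, and in the other 3 related lists for 0. Cdc20, an activator of the anaphase-promoting complex in mitosis, was at 0.718, 0.719, 0.845, 0.816 and 0.937 CPM in the sham rats and at 1.28, 1.09, 1.09, 1.30 and 1.04 CPM in the TBI rats, every TBI rat above every sham rat. Its log2 change was 0.53 (SE 0.19; edgeR, unadjusted p = 0.0106, adjusted p = 0.507), and it stayed under the unadjusted threshold in all 21 alternatives, on 12 to 44 reads per library. Mcm4, a subunit of the replicative helicase, was at 9.96, 11.4, 9.13, 9.18 and 12.1 CPM in the sham rats and at 8.32, 8.60, 8.60, 8.95 and 8.96 CPM in the TBI rats, every TBI rat below every sham rat (log2 change -0.25, SE 0.10; unadjusted p = 0.0193, adjusted p = 0.555). Its direction turned with scaling by total counts (log2 change 0.26), which moved the median of all records to 0.50. It also lost the unadjusted threshold with total counts outside ribosomal RNA (log2 change -0.10), with the ribosomal covariate, without sham replicates 4 and 5 and without sham replicate 2 or 5 alone. Pcna (log2 change 0.12), Mcm2 (0.26), Ccnd2 (-0.15), Cdk1 (-0.38) and Aurkb (-0.33), further genes of replication and mitosis, did not pass, as Mki67 did not.

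Of niche signals, Igf2, a growth factor made by choroid plexus, meninges and vessels, was at 3.25 to 6.21 CPM in sham and 4.87 to 7.56 CPM in TBI (log2 change 0.48, SE 0.16; edgeR, unadjusted p = 0.00813, adjusted p = 0.487). Bmp4, a ligand that favours stem cell quiescence, was at 7.30 to 9.45 CPM in sham and 8.67 to 10.5 CPM in TBI (log2 change 0.25, SE 0.10; unadjusted p = 0.0225, adjusted p = 0.568). Bmp4 lost the unadjusted threshold without sham replicate 1 or 3 or TBI replicate 3, and Igf2 and St8sia2 lost it with the ribosomal covariate. Of 5 meningeal markers 3 were higher (sums 5.25 to 17.3 CPM in sham and 11.3 to 13.8 CPM in TBI), and of 4 choroid plexus markers 1 (5.95 to 34.9 and 11.2 to 35.6 CPM). These counts stand beside 4.89% of all records that were higher at the unadjusted threshold. Another meningeal marker, 1 of the 5, was lower in direction (log2 change -0.95), and the highest meningeal sum was in sham replicate 1. Their part in the Igf2 difference was not tested.

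**Figure D4:**
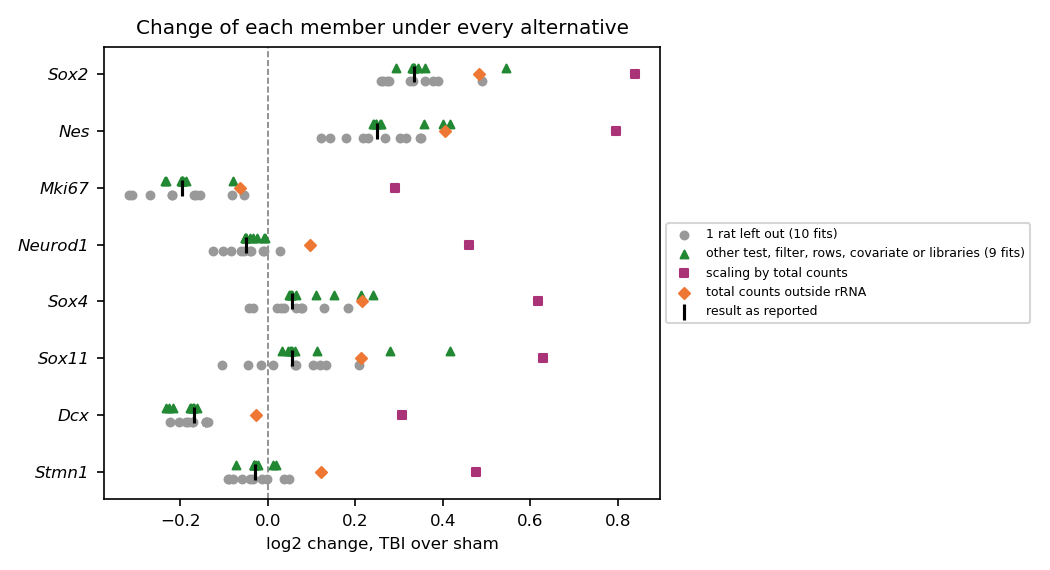
Log2 change of each member, TBI over sham (horizontal axis), as reported (black bar) and under 21 alternatives, drawn by kind. Sox2 and Nes stay above 0 throughout, while scaling by total counts moves all 8 members above 0 along with the median of all records.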

How the data were processed

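Poly-A RNA of 10 rats (5 sham, 5 TBI) was sequenced as single reads of 36 bases. The labels name BWA and the assembly rn4. The authors deposited raw read counts for each RefSeq RNA record, neither normalized nor pooled. The use of strand in counting is not given in the sources used here, so reads of overlapping or near-identical transcripts are uncertain. Of 32043 rows, 2 (an empty entry and unmapped reads, a median of 22.2%) were set aside. Symbols came from a RefSeq table of another assembly, used for names only, and 54.2% of records had one. The row with the highest mean count stood for a symbol. Records with a total of at least 44 counts, the 30th percentile, were tested (22431 records), the filter of the study itself. TBI was set against sham by quasi-likelihood testing in edgeR 4.0.16 (R 4.3.3, robust, TMM) with Benjamini-Hochberg adjustment. DESeq2 1.42.0 and limma 3.58.1 were alternatives. Correlations used log2 CPM (prior count 2) and 100000 permutations in scipy. The test was checked on simulated counts. Members and lists were chosen with earlier results of these data known. Genes named from a list were up to 3 of smallest unadjusted p in each direction among those under 0.05. Others are examples chosen after their values were seen. Replicates were numbered by sample order and pair nothing. All 45 pairs of libraries differed beyond counting noise (chi-square per degree of freedom at least 7.35). The labels do not say whether rats were processed in batches.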

Additional observations from a re-analysis of the deposited data

Results flagged for a closer look

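Values by rat of the members, the named related genes and the marker sums were searched for a rat far from the other 4 of its group (Dixon's test, 95% level). Of 70 groups of 5 rats 5 had one, where chance gives about 3.5. No member was among them. In sham replicate 3 Gfap was at 1628 CPM, against 776 to 910 CPM in the other sham rats, and St8sia2 was at 0.422 CPM, against 0.0625 to 0.156 CPM. In sham replicate 1 the markers of dentate granule neurons summed to 108 CPM, against 229 to 273 CPM, and those of CA3 pyramidal cells to 574 CPM, against 422 to 464 CPM. In sham replicate 4 the markers of choroid plexus summed to 34.9 CPM, against 5.95 to 13.8 CPM.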

How the results depend on the processing

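Sox2 and Nes were higher in TBI under all 21 alternatives. Leaving out both sham replicate 3 and TBI replicate 3, chosen after seeing the data by how these rats differed in expression, gave 1 member past an adjusted p of 0.05 (Sox2), against 0 under the other 20. It gave 20 related genes under an unadjusted p of 0.05, 5 past the adjusted threshold, 11 stem cell genes and 4 niche genes. Members under an unadjusted p of 0.05 numbered 1, became 2 with scaling by total counts and by total counts outside ribosomal RNA, 0 with the ribosomal share as covariate and 0 without the 2 sham rats richest in it, and were 0 to 1 when a rat was left out (0 without sham replicate 1 or 2 or TBI replicate 1, 2, 4 or 5). Without sham replicate 4 the 1 member was Dcx (-0.22) and not Sox2. Related genes numbered 13 and became 29 and 27 with those scalings and 5 with the covariate. Past the adjusted threshold they were 0, but 1 with edgeR's exact test and 3 with total counts. Stem cell genes (7, of which 6 higher) became 11 outside ribosomal RNA (10 higher with either scaling), 1 with the covariate (0 higher) and 2 without the 2 sham rats (1 higher), and leaving out a rat gave 3 (without TBI replicate 2) to 11 (without TBI replicate 3), with 2 (without TBI replicate 2) to 9 higher. Immature neuron genes (2) became 6 and 6 with the scalings, 0 with the covariate, 1 with limma voom and 1 to 4 with a rat left out (4 without sham replicate 3). Cell cycle genes (2) became 6 and 4, and 1 (without sham replicate 2) to 3. Niche genes (2) became 7 and 6, and 1 with the covariate.

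Scaling by total counts moved the median log2 change of all records to 0.50 and, outside ribosomal RNA, to 0.14. With total counts the changes of Dcx (0.31), Neurod1 (0.46), Mki67 (0.29), Stmn1 (0.48) and Mcm4 (0.26) turned upward. Outside ribosomal RNA Neurod1 (0.10) and Stmn1 (0.12) turned. Stmn1 also turned with the covariate (0.020) and without the 2 sham rats (0.013). With 1 rat left out the log2 change ran from -0.11 to 0.21 for Sox11, -0.043 to 0.18 for Sox4, -0.13 to 0.027 for Neurod1 and -0.090 to 0.049 for Stmn1. Correlations ran from -0.247 to 0.369 for Dcx and Sox11, -0.0315 to 0.534 for Dcx and Neurod1 and -0.0805 to 0.408 for Dcx and Stmn1, and Dcx and Neurod1 gave -0.208 without the 2 sham rats. The cause was not tested. Mki67 had 15 to 59 reads per library and Sox11 25 to 73, the fewest of the members.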

Other observations

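Sham replicate 5 had the highest level of all 10 rats in Sox4 (15.7 CPM), Sox11 (2.44 CPM, on 39 reads) and Neurod1 (19.9 CPM). These 3 transcription factors of committed neuronal precursors were picked after their values were seen. The same rat was not the highest in Dcx (10.4 CPM, the sham median) or Stmn1 (101 CPM, against 112 CPM in sham replicate 2). The ribosomal RNA share of sham replicate 5 was 58.5%, and its part in these levels was not tested. Sham replicate 4, with a share of 59.0%, was at 10.9, 1.70 and 13.7 CPM. The spread between sham rats was wider than between TBI rats for Sox4 (SD 3.11 and 0.882 CPM, n = 5) and Neurod1 (SD 2.84 and 1.23 CPM), a difference in spread that was not tested.

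Of 6 interneuron markers 2, Gad1 and Gad2, enzymes of GABA synthesis, were lower in TBI at an unadjusted p under 0.05, beside 3% of all records. None of the 6 passed the adjusted threshold. All 6 were lower in direction in TBI, with a median log2 change of -0.36. The ranges of the groups separated for 1 of 6, beside 0.923% of all records. The summed level was 172 to 244 CPM in sham and 127 to 202 CPM in TBI. Gad1 and Gad2 were also among the genes that the study listed as lower in this model, each at an adjusted p under 0.05. That list came from rats of these groups, which is not independent evidence. Of 6 endothelial and 5 mural cell markers 0 passed (sums 63.0 to 86.5 and 74.3 to 83.8 CPM, and 27.6 to 34.7 and 29.7 to 37.7 CPM).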
